A study of Mus musculus with 4 samples.

Results

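Hair follicle bulge cells of adult mouse back skin were taken from the single-cell libraries made 1 week after ablation of ΔNp63. A barcode was a member when it held 2000 or more gene UMIs (unique molecular identifiers, each marking 1 captured RNA molecule) and 15% or fewer mitochondrial UMIs. It also needed 3 or more UMIs summed over Cd34, Krt24, Postn and Lgr5, at least 2 of these 4 genes detected, and no UMI of Ptprc, Pecam1, Col1a1 or Col3a1. In all, 1922 of 43452 barcodes of the 1-week libraries were members, among 109216 barcodes in the series. The control library gave 929 members of 10092 barcodes that passed the depth and mitochondrial limits, which is 9.21% (95% exact binomial interval 8.65 to 9.79%). The experimental library gave 993 of 6255, or 15.9% (14.98 to 16.8%). These shares depend on the 4 genes of the rule and are a description only.

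The control group was DNp63fl/fl and the experimental group DNp63fl/fl;K14-CreT2, in which a tamoxifen-dependent Cre recombinase is driven by the keratin 14 promoter of basal keratinocytes and the outer root sheath of the follicle. Both groups received tamoxifen by gavage at 200 mg/kg daily for 5 days, so the floxed alleles and the drug were common to them. Cre itself was present in the experimental group only, and Cre and the loss of ΔNp63 cannot be told apart in this design. Mice were 2 to 17 months old with both sexes in equal numbers, and epidermis was scraped from back skin floated on 0.25% trypsin, either overnight at 4 °C or for 2 h at 37 °C. The labels do not say which ages, sexes, number of animals or digestion went into each library. With a single library in each group, differences could not be checked against replicates or tested, and all intervals cover counting error only.

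The bulge is the part of the outer root sheath, below the sebaceous gland, that houses slowly dividing stem cells of the hair follicle. Its cells make keratin 15 and the surface protein CD34, and they regenerate the lower follicle at each hair cycle under the control of Wnt and BMP signals. The transcription factor p63 is a master regulator of stratified epithelia, and its ΔN isoform, made from an internal promoter of Trp63, is the main form in basal keratinocytes. ΔNp63 is known to control keratin 5, keratin 14 and the genes that anchor basal cells to the basement membrane.

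Trp63 lies on the plus strand of chromosome 16 (GRCm38, chr16:25683763-25892102). The start of the coding sequence is shown for both kinds of transcript, because it is where the ablated isoform and the TA isoform differ. Capitals mark the coding bases of the first exon and lower case the first bases of the next exon.
ΔN coding start, first exon at chr16:25801916-25802101: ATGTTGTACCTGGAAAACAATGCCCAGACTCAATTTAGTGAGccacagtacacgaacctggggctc
TA coding start, first exon at chr16:25683765-25684351: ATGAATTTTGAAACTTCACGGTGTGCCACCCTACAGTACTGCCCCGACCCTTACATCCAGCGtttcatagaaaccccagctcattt
The sequences are from the GENCODE M21 transcripts, in which 4 ΔN and 4 TA transcripts carry these starts. The ΔN exon gives 42 coding bases and the TA exon 62. The isoforms cannot be separated in these per-gene counts, and the labels do not say which exon is flanked by loxP sites. A Trp63 UMI therefore need not come from the deleted part.

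Trp63 was lower in experimental bulge cells, by a smaller ratio than in the other keratinocytes of the same libraries. Bulge cells held 496 CPM of Trp63 (counts per 1000000 UMIs; 95% exact Poisson interval 478 to 515, from 2838 UMIs) in the control library. They held 264 CPM (252 to 277, from 1718 UMIs) in the experimental library. The log2 ratio of experimental over control was -0.91 (exact conditional binomial interval -0.997 to -0.823). Other keratinocytes, taken as barcodes with no UMI of the 4 rule genes and with Krt5 and Krt14 both detected, numbered 4298 and 1899. Their Trp63 level was 514 CPM (control) and 101 CPM (experimental), a log2 ratio of -2.35 (-2.42 to -2.28). Upper follicle cells, chosen by 3 or more UMIs of Krt79 and partly the same barcodes as the other keratinocytes, lay between them with 316 and 93.4 CPM and a log2 ratio of -1.76 (-1.86 to -1.66). The intervals of these 3 ratios did not overlap. The control levels of bulge cells and other keratinocytes lay close together, and their experimental levels lay apart.

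Counted by cell, fewer experimental bulge cells held Trp63. After every cell was thinned to 2000 UMIs, 60.6% of control members (57.4 to 63.8%) and 37.5% of experimental members (34.4 to 40.6%) had a Trp63 UMI. Unthinned shares were 80.4% and 57.0%. Among other keratinocytes the thinned shares were 58.1% and 22.2%. An immune reference, barcodes with immune markers and under 0.2% of UMIs from Krt5, Krt14 and Krt15, was used to gauge free RNA. Of its control cells 2.17% (5 of 230) held Trp63 at the same depth, and of its experimental cells 0 of 124, which allows a share of up to 2.93%. Bulge shares lay above those of the reference in both libraries. The keratin limit lowers keratinocyte RNA in the reference by selection: its Trp63 level was 25.5 CPM in the control library, where barcodes with immune markers held 284 CPM before the limit. In the experimental library they held 37.7 CPM before it and none after it. The median depth before thinning was 4160 and 4192 UMIs in control and experimental bulge cells and 3058.5 and 4422.5 in the immune reference.

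**Figure D1:**
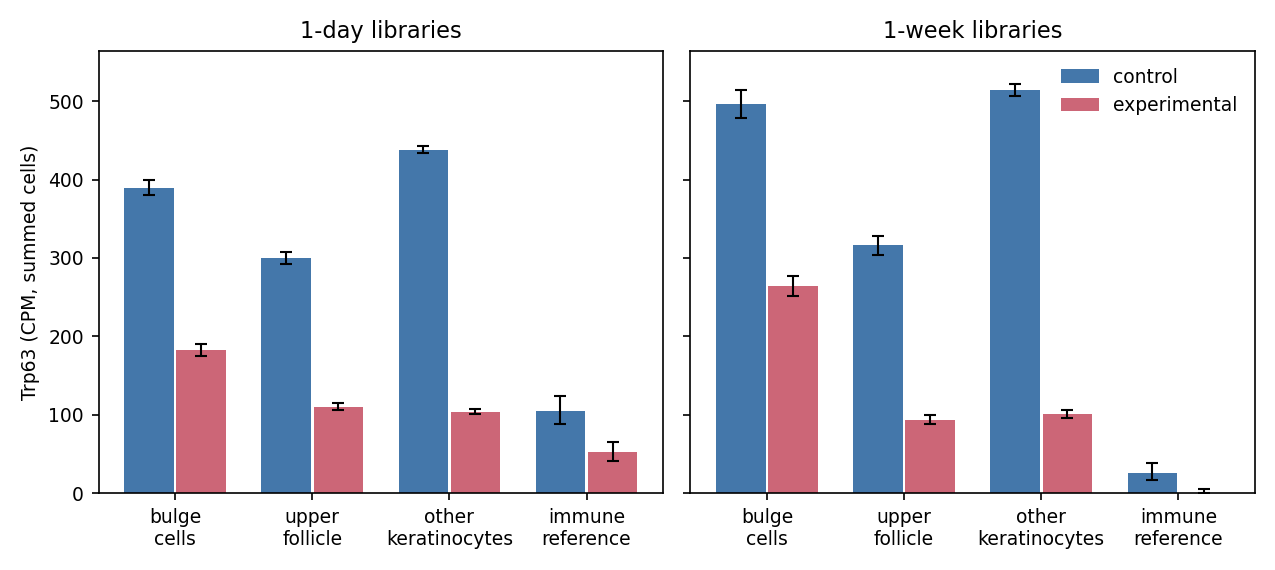
Trp63 level (CPM over the summed cells of a set, vertical axis) in control and experimental libraries at 1 day and 1 week, with 95% exact Poisson intervals that cover counting error only. At 1 week the experimental bar stands at 264 in bulge cells and at 101 in other keratinocytes, beside control bars of 496 and 514.

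The same rule found 2793 and 2143 bulge cells in the control and experimental libraries made 1 day after ablation with a 3′ kit, where the 1-week libraries used a 5′ kit. Control and experimental bulge cells of that day held 389 and 182 CPM of Trp63, a log2 ratio of -1.09 (-1.16 to -1.02). In other keratinocytes of that day the log2 ratio was -2.07 (-2.11 to -2.03). The immune reference of that day held 104.6 and 52.6 CPM of Trp63, a higher background than at 1 week. Trp63 was thus lower in bulge cells at both times, and by less than in other keratinocytes at both times. Kit and time cannot be told apart, and no change between the days was tested.

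Depth and mitochondrial share were alike in both sets of members, and Xist was not. The 1-week libraries held 88903603 and 68191870 gene UMIs, of which bulge cells gave 5721863 and 6507308. The median mitochondrial share of members was 1.97% in control and 2.01% in experimental cells. The libraries shared 661 barcodes (2.64% of control and 3.59% of experimental barcodes), and 1 member barcode. Xist stood at 176 and 102 CPM in control and experimental members, and Y-linked Ddx3y at 48.1 and 47.2 CPM, so both libraries held cells of both sexes and Xist was lower in the experimental one. Whether sex, age or digestion took part in any difference was not tested.

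The 4 genes of the rule described the members as follows, with no comparison drawn. Postn, which encodes the matrix protein periostin, was the most abundant at 1432 CPM in control and 1487 CPM in experimental members. Cd34 stood at 478 and 518 CPM. The Wnt-amplifying receptor gene Lgr5 stood at 265 and 266 CPM, and the keratin gene Krt24 at 247 and 155 CPM. Thinned to 2000 UMIs, Krt24 was found in 32.5% of control and 20.9% of experimental members. A member held a median of 11 and 10 UMIs of the 4 genes. The number of rule genes detected was less alike. Of the 929 control members 370 held exactly 2 of them, 328 held 3 and 231 held 4. Of the 993 experimental members these numbers were 499, 374 and 120. Requiring at least 3 of the 4 genes, 1 of the alternative settings, left 559 and 494 members. Just inside the limit were 111 control and 121 experimental members with exactly 3 UMIs, and just outside it 171 and 164 barcodes with 2. Genes of other lineages removed 178 and 183 barcodes that met the rest of the rule.

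The bulge label held for genes the rule did not use. Of 12 bulge transcription factors on a list, all 12 were measured, and several were far higher in members than in other keratinocytes. Lhx2, which maintains bulge stem cells, stood at 308 CPM in control members against 9.82 CPM in other control keratinocytes. Tbx1 stood at 149 against 4.68 CPM, and Sox9, a factor of outer root sheath stem cells, at 693 against 170 CPM. Upper follicle control cells held 504 CPM of Sox9, nearer to the members, and 17.0 CPM of Lhx2 and 6.12 CPM of Tbx1. The Wnt modulators Dkk3 and Sfrp1 stood at 154 against 3.74 CPM and 424 against 31.8 CPM. Not every member looked alike. In 133 control members, 14.3% (12.1 to 16.7%), Krt1 and Krt10 together made up 0.5% or more of the UMIs, and in 38 experimental members, 3.83% (2.72 to 5.21%). These keratins belong to suprabasal epidermis. Their control carriers held 60.0 CPM of Lhx2 and 5266 CPM of Krt15, against 369 and 13115 CPM in the other control members. Members with many spinous keratin UMIs therefore carried less of the bulge programme, and several results that turn on them are given with and without them. Levels of other genes also moved without these members. Krt15 then stood at 13115 CPM in control and 8497 CPM in experimental members, and Col17a1 at 1602 and 872 CPM. Dst then stood at 1271 and 680 CPM, and Sox9 at 818 and 1080 CPM.

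Across 10590 genes with 50 or more UMIs over both libraries' members, 395 (3.73%) were at least 2-fold higher and 233 (2.2%) at least 2-fold lower in experimental bulge cells. Genes of the rule were left out of this count. Genes on lists were counted from 20 UMIs, and at that floor 608 of 12037 genes (5.05%) were at least 2-fold higher and 398 (3.31%) lower. In other keratinocytes 1330 of 12022 genes (11.1%) were at least 2-fold higher and 805 (6.7%) at least 2-fold lower. Of the 395 higher genes, 267 were also at least 2-fold higher in other keratinocytes. Of the 233 lower genes, 121 were also at least 2-fold lower there. At 1 day, 327 of 11012 genes (2.97%) in bulge cells were at least 2-fold higher and 112 (1.02%) at least 2-fold lower. The level in the immune reference and the weight of single members were set beside these counts. Of the higher genes 148 stood in experimental bulge cells at or below their level in the experimental immune reference, and for 11 a single member held 50% or more of the UMIs. Of the lower genes these numbers were 47 and 13, taken in the control library. The whole interval lay beyond 2-fold for 192 higher and 90 lower genes. In the immune reference 129 higher and 68 lower genes were also past 2-fold in the same direction. No UMI floor was set for the reference, which also holds RNA that its immune cells make. The matching shares of all 10590 genes were not counted, so the counts against the reference are a description only. Among genes with 50 or more UMIs in 1-day bulge cells, 121 of 351 higher and 21 of 207 lower genes were past 2-fold in the same direction at 1 day. The median log2 ratio over all 10590 genes was 0.05.

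None of the 12 bulge transcription factors passed 2-fold in either direction, where 5.05% of all genes with 20 or more UMIs were higher and 3.31% lower. Their median log2 ratio was 0.18 beside 0.05 over all genes, and -0.0091 without the members rich in Krt1 and Krt10. Sox9 was the factor with the highest ratio, at 693 CPM in control and 1060 CPM in experimental cells, a log2 ratio of 0.61 (0.56 to 0.67). Vdr, the vitamin D receptor gene, stood at 136 and 200 CPM, Foxc1, a factor of bulge quiescence, at 80.6 and 101 CPM, and Runx1 at 138 and 168 CPM. Hopx, a gene of slow-cycling bulge cells, was lower at 448 and 370 CPM, and Nfib was lower at 967 and 852 CPM. Lhx2 stood at 308 and 288 CPM, with a log2 ratio of -0.10 (-0.19 to -0.01), and of -0.33 without the members rich in Krt1 and Krt10. Nfatc1, which holds bulge stem cells quiescent, stood at 204 and 242 CPM, and Tbx1 at 149 and 137 CPM. The thinned share of cells with a Lhx2 UMI was 42.4% in control and 40.4% in experimental members, against 0 of 230 and 1 of 124 immune reference cells.

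**Figure D2:**
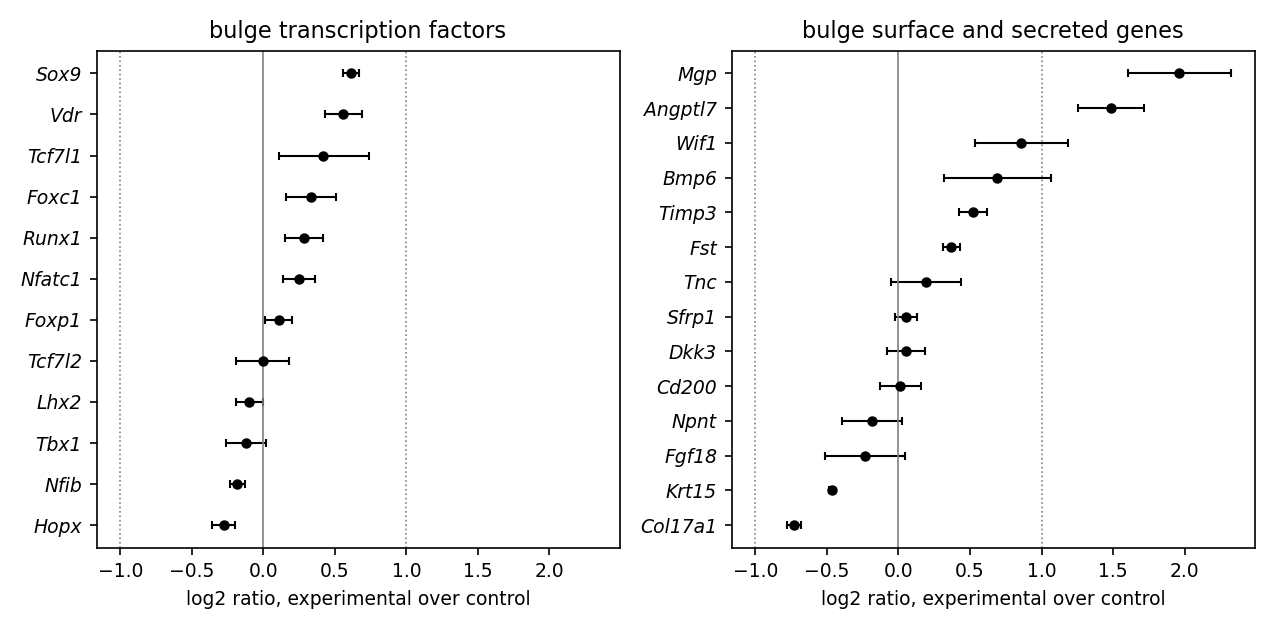
Log2 ratio of experimental over control CPM in 1-week bulge cells (horizontal axis) for each bulge transcription factor and each bulge surface or secreted gene outside the rule, with 95% conditional binomial intervals; dotted lines mark 2-fold. All 12 factors lie within 2-fold, Angptl7 and Mgp lie above it, and Col17a1 is the lowest of its list at -0.73.

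Among 14 bulge surface and secreted genes, 2 were at least 2-fold higher and none was 2-fold lower, beside 5.05% and 3.31% of all genes. The median log2 ratio was 0.12, beside 0.05 over all genes, and -0.12 without the members rich in Krt1 and Krt10. Angptl7, a secreted bulge protein gene, stood at 35.1 CPM in control and 98.2 CPM in experimental members, a log2 ratio of 1.48 (1.25 to 1.72). Its thinned share was 6.78% (5.25 to 8.59%) and 13.1% (11.1 to 15.3%), with no cell of the immune reference positive at that depth. Mgp, which encodes a matrix protein that inhibits BMP, stood at 14.2 and 55.0 CPM, a log2 ratio of 1.96 (1.61 to 2.32). The Wnt inhibitor gene Wif1 was higher at 20.6 and 37.3 CPM, and Timp3, a metalloprotease inhibitor gene, at 247 and 354 CPM. Cd200, an immune-modulating surface protein gene of the bulge, stood at 130 and 131 CPM. On the lower side, Krt15 stood at 11561 CPM in control and 8366 CPM in experimental cells, a log2 ratio of -0.47 (-0.48 to -0.45). In other keratinocytes Krt15 stood at 5812 and 945 CPM, a log2 ratio of -2.62. The Krt15 ratio was thus smaller in size in members than in other keratinocytes. Members had to hold rule genes after ablation, and other keratinocytes had to lack them. A cell that lost the rule genes would leave the first set, so the level of bulge genes kept in members is partly set by the rule. The same limit applies to the bulge transcription factors.

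Among anchoring genes of basal cells, more had lower than higher values in experimental bulge cells, nearly all within 2-fold. Intervals cover counting error only, and 14.5% of all genes with 20 or more UMIs had one below 0 and 21.9% one above 0. Of 15 measured hemidesmosome and basement membrane genes 9 had an interval below 0 and 3 (Cd151, Itga3 and Itgb1) an interval above 0. In this list 1 gene was at least 2-fold lower and none 2-fold higher, beside 3.31% and 5.05% of all genes. The median log2 ratio was -0.21 in bulge cells and -1.65 in other keratinocytes. Col17a1, the transmembrane collagen XVII of hemidesmosomes and a maintenance factor of bulge stem cells, stood at 1424 CPM in control and 858 CPM in experimental members. Its log2 ratio was -0.73 (-0.78 to -0.68), beside -2.99 in other keratinocytes. Dst, whose epithelial form links keratin to the hemidesmosome, stood at 1150 and 666 CPM, a log2 ratio of -0.79 (-0.84 to -0.73) beside -2.55. Col7a1, the anchoring fibril collagen, stood at 65.5 and 37.0 CPM, and Frem2, a basement membrane protein gene and the only one past 2-fold, at 22.5 and 9.22 CPM. Over the alternative settings the log2 ratio of Frem2 ran from -1.49 to -0.85. Not all members of the list were lower. The integrin genes Itga6, at 304 and 308 CPM, and Itgb1, at 212 and 229 CPM, had log2 ratios of 0.01 and 0.11, beside -0.91 and -1.08 in other keratinocytes. The integrin genes Itga2, at 41.1 and 23.4 CPM, and Itgb4, at 263 and 234 CPM, were lower, with log2 ratios of -0.81 (-1.12 to -0.51) and -0.17 (-0.27 to -0.06). In 4 of the 15 genes the sign in bulge cells was opposite to that in other keratinocytes, and in 10 more the ratio had the same sign and a smaller size. The share of all genes so placed was not counted. For 21 cell cycle genes these counts were 4 and 14, for 15 BMP pathway genes 3 and 10, and for 9 desmosome genes 4 and 2. The counts are therefore not read as particular to anchoring genes.

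The basal keratin genes Krt5 and Krt14 had ratios of opposite sign in bulge cells. Krt5 stood at 8055 and 6222 CPM, a log2 ratio of -0.37 (-0.39 to -0.35), and Krt14 at 4603 and 6760 CPM, a log2 ratio of 0.55 (0.53 to 0.58). Other keratinocytes had log2 ratios of -1.23 for Krt5 and 0.28 for Krt14. That set was chosen by UMIs of these 2 genes, so its ratios for them are partly set by the choice. None of the 5 basal interfollicular genes passed 2-fold in either direction, where 5.05% of all genes were higher and 3.31% lower, and Ly6a, which encodes the surface protein Sca-1 of interfollicular and upper follicle cells, was the nearest at 115 and 223 CPM. Of 9 desmosome genes none passed 2-fold, and Dsc3 was the lowest of them at 617 and 405 CPM.

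Keratins of wounds and of simple epithelia were higher in experimental bulge cells. All 4 wound keratins were at least 2-fold higher, beside 5.05% of all genes. Their median log2 ratio was 1.74, beside 4.07 in other keratinocytes, and all 4 ratios were smaller in bulge cells. How many of all genes had smaller ratios in bulge cells was not counted. Krt6a, which also marks the inner bulge and companion layer, stood at 453 and 1571 CPM, a log2 ratio of 1.79 (1.73 to 1.86). In other keratinocytes the log2 ratio of Krt6a was 5.58. Krt16 stood at 271 and 871 CPM, and Krt17, which is also an upper follicle keratin, at 1889 and 4269 CPM. Without the members rich in Krt1 and Krt10, Krt16 stood at 183 and 728 CPM and Krt17 at 2045 and 4097 CPM. Of 8 upper follicle genes Krt17 alone passed 2-fold, which is 1 gene beside that same share, with a median log2 ratio of 0.41, and Krt79 stood at 410 and 616 CPM. Krt6b had no UMI in the control members and 1569 UMIs (241 CPM) in the experimental ones. With the control library set to a floor of 3 UMIs, that was 460-fold higher. The exact lower bound of the log2 ratio was 8.55. One experimental member held 36.6% of the Krt6b UMIs. Without that member the log2 ratio at the floor was 8.19 in place of 8.85. The 38 experimental members rich in Krt1 and Krt10 held 688 Krt6b UMIs (3264 CPM), and the other 955 held 881 (140 CPM). Krt6a and Krt6b are near-identical genes, so reads may be split between them. Control members held 2591 Krt6a UMIs where they held no Krt6b UMI, and the split was not tested. Krt75, a companion layer keratin, stood at 5.77 and 25.4 CPM, with 48.5% of the control UMIs in 1 member.

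Krt8 and Krt18, the paired keratins of simple epithelia, were nearly absent from control bulge cells. Krt8 stood at 2.27 CPM (13 UMIs) in control and 170 CPM (1108 UMIs) in experimental members, a log2 ratio of 6.23 (5.45 to 7.14). Krt18 stood at 0.17 CPM (1 UMI) and 36.1 CPM (235 UMIs), a log2 ratio of 7.69 (5.199 to 13.0). Of the 4 measured simple keratins 3 were at least 2-fold higher, beside 5.05% of all genes. The third was Krt19, at 2.10 and 13.7 CPM, of which 1 experimental member held 51.7% of the UMIs, and the exception was Krt7. Krt8 was also higher in other keratinocytes, from 1.43 to 674 CPM, and in 1-day bulge cells, from 1.65 to 337 CPM. At 2000 UMIs per cell, 0.32% of control members (0.07 to 0.94%) and 13.0% of experimental members (11.0 to 15.2%) had a Krt8 UMI. In the immune reference the shares were 0 of 230 cells, which allows up to 1.59%, and 1.61% (2 of 124). Krt6b was found in 0% of control members, which allows 0.40%, and in 16.01% of experimental members (13.8 to 18.4%). Krt6a went from 34.1% to 65.4% of members. The experimental shares of all 3 genes lay above those of the immune reference. Its keratin limit lowers keratinocyte RNA there by selection, and the part of free RNA in these shares was not tested.

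**Figure D3:**
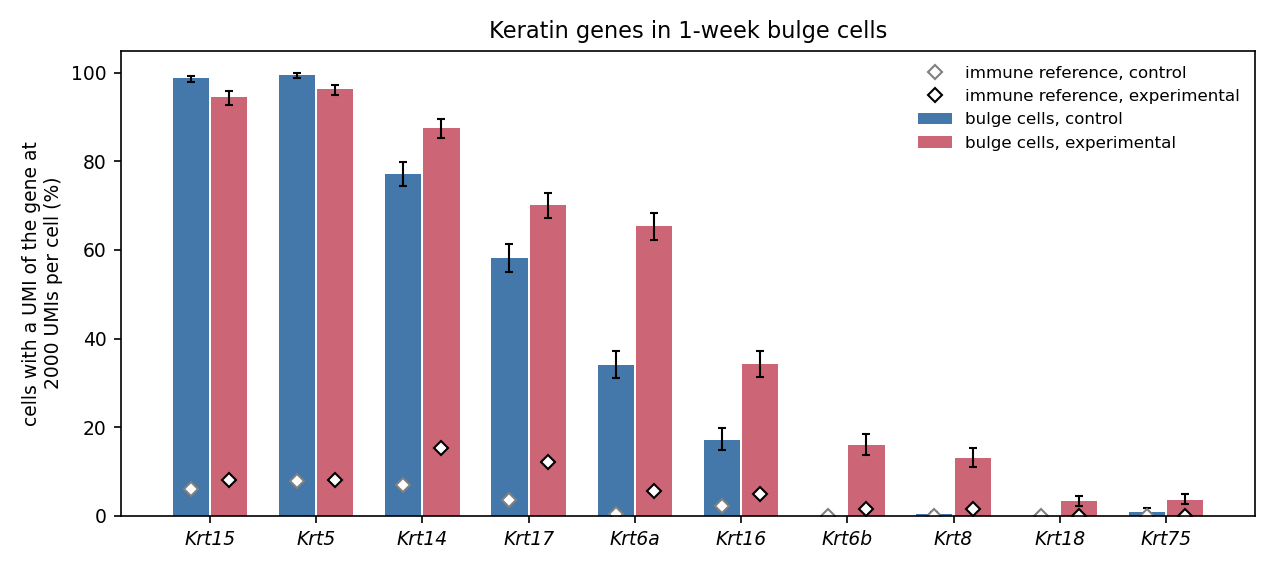
Share of 1-week bulge cells with a UMI of each keratin gene after thinning to 2000 UMIs per cell (vertical axis, %), with 95% exact binomial intervals; diamonds give the immune reference. Krt6a stands at 34.1% in control and 65.4% in experimental members, Krt8 at 0.32% and 13.0%, while Krt15 stays above 94% in both.

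Within the experimental library, members with Krt8 held less Trp63, Krt15, Krt5, Col17a1 and Lhx2 and more Krt17, Krt14 and Ly6a. Thinned to 2000 UMIs, the 129 members with Krt8 held 151 CPM of Trp63, and the 864 without it held 325 CPM. Krt15 stood at 5535 CPM in members with Krt8 and 10737 CPM in those without. Col17a1 stood at 512 and 1151 CPM, and Lhx2 at 236 and 337 CPM, in the same order. The upper follicle and wound keratin gene Krt17 went the other way, at 5612 and 3511 CPM. Basal list genes did not all go one way. Krt5 stood at 4302 CPM in members with Krt8 and 6733 CPM in those without. Krt14 stood at 7221 and 6193 CPM, and Ly6a at 484 and 113 CPM, in the same order. Cells of 1 library are not replicates, so these values describe that library only.

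Splitting members by Trp63 gave a partly different picture. At 2000 UMIs, 372 experimental members had a Trp63 UMI and 621 had none. Col17a1 stood at 1430 CPM in those with Trp63 and 851 CPM in those without, and Dst at 1222 and 576 CPM. Krt15 stood at 11878 and 8973 CPM. In control members the same split gave smaller gaps, with Col17a1 at 1797 and 1540 CPM and Dst at 1349 and 1194 CPM. Krt8 stood at 71.2 CPM in experimental members with Trp63 and 143 CPM in those without. Krt6a, at 1501 and 1447 CPM, and Krt17, at 3763 and 3796 CPM, were close to equal on both sides. Within the experimental library, Col17a1 and Dst were thus higher and Krt8 lower where Trp63 was detected, while Krt6a and Krt17 hardly differed. These are pooled cells of 1 library, with no test. A cell without a Trp63 UMI at this depth may still hold Trp63 RNA.

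**Figure D4:**
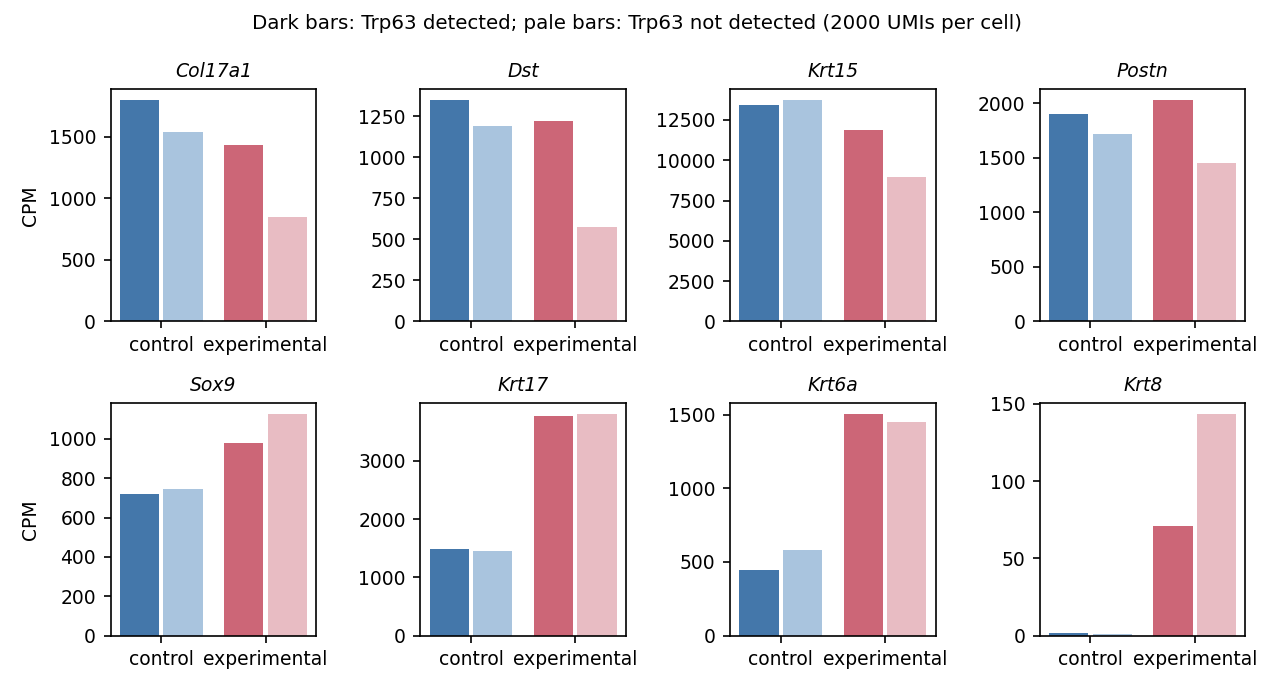
Level of 8 genes (CPM after thinning to 2000 UMIs per cell, vertical axes) in 1-week bulge cells with and without a Trp63 UMI, for the control and experimental libraries; bars are pooled cells of 1 library and carry no error. In the experimental library Col17a1 stands at 1430 with Trp63 and 851 without, whereas Krt6a stands at 1501 and 1447.

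Spinous and terminal differentiation genes did not go together. Of 7 spinous genes 6 were at least 2-fold lower, beside 3.31% of all genes, with a median log2 ratio of -1.95. Krt1 stood at 942 and 152 CPM, Krt10 at 1879 and 403 CPM, Krt77 at 845 and 218 CPM, and Mt4, a differentiation-associated metallothionein gene, at 52.1 and 1.23 CPM. The control immune reference held these keratin RNAs at like levels, with Krt1 at 719 CPM, Krt10 at 1918 CPM and Krt77 at 975 CPM. In the experimental reference they stood at 153, 1745 and 1107 CPM. The part of free RNA in these values was not tested. For Krt1, Krt10, Krt77 and Krtdap the direction rested on the members rich in Krt1 and Krt10. Without the 133 control members and their 38 experimental counterparts, the list's median log2 ratio was 0.61, with Krt77 at 0.85. Mt4 and the desmosomal cadherin gene Dsg1a kept their direction, at -1.92 and -0.74. At 2000 UMIs, 27.1% (24.3 to 30.1%) of control and 25.9% (23.2 to 28.7%) of experimental members had a Krt10 UMI, and in the immune reference 11.3% and 8.06%.

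Of 21 terminal differentiation genes 11 were at least 2-fold higher and 1 lower, beside 5.05% and 3.31% of all genes. The median log2 ratio was 1.06, beside 3.95 in other keratinocytes. That median depended on the members used, at 0.37 with 4000 UMIs or more, 2.50 without the members rich in Krt1 and Krt10, and up to 2.93 with an Lhx2 UMI required. Without the member richest in each gene it was 2.62. One control member held all 194 control UMIs of Lce1a1, 1 held 301 of 302 of Lce1b, and 1 held 153 of 166 of Lce1m. For Flg and Lor this control share was 82.9% and 60.4%. Lce1a1, within 2-fold by CPM, had UMIs in 1 control and 62 experimental members. In none of the 11 higher genes did 1 experimental member hold 50% or more. Klk7, a protease gene of cornified cell shedding, stood at 70.4 and 535 CPM, a log2 ratio of 2.92 (2.77 to 3.08). Sprr1b stood at 2.45 and 122 CPM, and Sprr2d, like it a cornified envelope precursor gene, at 0.35 CPM (2 UMIs) and 89.9 CPM, a log2 ratio of 8.01 (6.15 to 11.1). Rptn had no control UMI and stood at 38.1 CPM in experimental members, 72.7-fold higher with the control set to the floor of 3 UMIs. Its exact lower bound of the log2 ratio was 5.87. Ivl, the gene of involucrin, was the one that was lower, at 68.3 and 10.8 CPM, a log2 ratio of -2.67. Without the members rich in Krt1 and Krt10 it was -0.35. For 8 of the 11 higher genes the level in experimental bulge cells was at or below that of the experimental immune reference. Klk7 stood at 1010 CPM there and Sprr2d at 167 CPM. The part of free RNA in these 8 values was not tested. Sprr1b, at 10.7 CPM in the reference, and Rptn, at 8.004 CPM, lay above it. Casp14, named after its values were seen, stood at 21.2 CPM (17.8 to 25.1) in bulge cells and at 18.7 CPM in the reference from 14 UMIs, which counting error does not separate.

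Most inflammatory mediators were higher in experimental bulge cells. Of 25 measured mediators 16 were at least 2-fold higher and none was 2-fold lower, beside 5.05% and 3.31% of all genes. The median log2 ratio was 2.60, beside 0.84 in other keratinocytes, 0.68 in the immune reference and 1.04 in bulge cells at 1 day. Gene by gene, 11 of the 25 had a smaller ratio of the same sign in bulge cells than in other keratinocytes, and 4 had ratios of opposite sign. The share of all genes so placed was not counted. Lcn2, an antimicrobial lipocalin gene, stood at 3.15 and 94.05 CPM, a log2 ratio of 4.90 (4.23 to 5.67). The protease inhibitor gene Slpi stood at 0.35 CPM (2 UMIs) and 43.6 CPM, a log2 ratio of 6.96 (5.10 to 10.0). The cytokine gene Il24 stood at 0.52 CPM (3 UMIs) and 18.3 CPM, and the neutrophil chemokine gene Cxcl2 at 0.35 CPM (2 UMIs) and 14.6 CPM. Single cells weighed on some of these. One experimental member held 40.3% of Il24 UMIs, 1 held 56.8% of Cxcl2 UMIs, and 1 held 83.3% of the UMIs of the chemokine gene Cxcl10. Without that experimental member the log2 ratio was 4.39 in place of 5.12 for Il24, and 4.18 in place of 5.38 for Cxcl2. For Cxcl10 it was 0.35 in place of 2.92, which is under 2-fold. For 7 of the 16 higher mediators the bulge level was at or below the experimental immune reference, Slpi (113 CPM there) and Cxcl2 (298 CPM) among them. The part of free RNA or of immune cells in those 7 was not tested.

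Other mediators, named after their values were seen, had more UMIs or ratios unlike those in other keratinocytes. Ccl2, a monocyte chemokine gene, stood at 21.3 and 129 CPM in bulge cells, a log2 ratio of 2.60 (2.32 to 2.88), beside 0.59 in other keratinocytes and 56.0 CPM in the experimental immune reference. Cxcl14, a chemokine gene that bulge cells make at a high level, stood at 2192 and 3191 CPM, a log2 ratio of 0.54 (0.51 to 0.57). In other keratinocytes Cxcl14 stood at 784 and 173 CPM, a log2 ratio of -2.18. Nfkbia, an inhibitor and target of NF-kappaB, stood at 913 and 1776 CPM in bulge cells. Tslp, an alarmin cytokine gene, stood at 4.89 and 20.3 CPM in bulge cells but at 11.3 and 354 CPM in other keratinocytes. On the lower side of the list, the alarmin gene Il33 stood at 24.5 and 12.4 CPM and the chemokine gene Ccl27a at 498 and 405 CPM.

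Stress genes were mostly a little higher. Of 15 genes of stress and dissociation 13 had an interval above 0, beside 21.9% of all genes, and 1 was at least 2-fold higher, beside 5.05%. Their median log2 ratio was 0.27. The gene past 2-fold was Socs3, a feedback inhibitor of STAT3 signalling, at 135 CPM in control and 402 CPM in experimental members, a log2 ratio of 1.57 (1.46 to 1.69). Its thinned share was 16.4% and 37.3% in bulge cells and 10.0% and 26.6% in the immune reference, so it was higher in both kinds of cell. Zfp36, which encodes an RNA-destabilizing protein, stood at 1394 and 2169 CPM. AP-1 genes stayed within 2-fold in all 8 cases, with Fosl2 the highest at 134 and 207 CPM and Fosl1 the lowest at 420 and 330 CPM. Of 11 antigen presentation genes none passed 2-fold. Cd74, the invariant chain gene, was the nearest, at 80.7 and 161 CPM, and immune cells carried 28938 CPM of it. Of 7 interferon-stimulated genes 1 was at least 2-fold higher (Isg15, 5.59 and 11.5 CPM) and 1 at least 2-fold lower (Usp18, 12.2 and 3.69 CPM), beside 5.05% and 3.31% of all genes. Isg15 stood at 50.7 CPM in the experimental immune reference, above its level in bulge cells.

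Pathways that govern bulge cell activation had 0 to 2 genes each past 2-fold in either direction, where 5.05% of all genes were higher and 3.31% lower. Of 24 Wnt pathway genes 2 were at least 2-fold lower and none higher, with a median log2 ratio of 0.07. Those 2 were ligand genes, Wnt16 at 11.7 and 3.23 CPM and Wnt5a at 3.67 CPM (21 UMIs) and 1.54 CPM (10 UMIs). The receptor gene Fzd2 stood at 219 and 158 CPM. The co-receptor gene Lrp5 stood at 20.1 and 34.1 CPM. Of 15 BMP pathway genes 1 was 2-fold lower, the ligand gene Bmp4 at 8.39 and 1.84 CPM. Neither Bmp4 nor Wnt16 was past 2-fold in every setting: without Postn in the rule the log2 ratio of Bmp4 was -0.84, and after thinning that of Wnt16 was -0.97. The ligand genes Bmp7, at 26.7 and 44.3 CPM, and Bmp6, at 16.4 and 26.4 CPM, were higher, and the target gene Id2 was lower, at 278 and 193 CPM. Among 10 Notch pathway genes 1 passed 2-fold on the higher side, the target gene Hey1 at 2.45 CPM (14 UMIs) and 5.38 CPM (35 UMIs). Hes1, also a Notch target, stood at 61.0 and 39.8 CPM, and the receptor gene Notch2 at 28.0 and 42.7 CPM. None of the 4 measured hair germ genes passed 2-fold. Of 4 measured genes of the hair matrix and inner root sheath, 1 was at least 2-fold higher, Tchh (trichohyalin) at 10.8 and 64.5 CPM. In other keratinocytes Tchh stood at 4.72 and 574 CPM. Gata3, a factor of the inner root sheath, stood at 118 and 63.5 CPM.

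Cell cycle genes differed in both directions in bulge cells, and the share of cells with the proliferation gene Mki67 was higher in the experimental library in every class compared. At 2000 UMIs per cell that share was 3.98% (2.82 to 5.45%) in control and 8.36% (6.71 to 10.3%) in experimental members (6.89% and 12.7% unthinned). It was 8.84% and 16.2% in other keratinocytes, and 3.91% (1.80 to 7.30%) and 7.26% (3.37 to 13.3%) in the immune reference, where the intervals overlapped. The summed level of Mki67 in members was 111 and 126 CPM. Its log2 ratio ran from -0.21 to 0.59 over the settings, so its direction was not kept. Members with both Cd34 and Lgr5 held 79.8 and 77.5 CPM of Mki67, and those with Lgr5 only 256 and 201 CPM. Members with Cd34 and no Lgr5 held 102 and 154 CPM, and those with neither 31.4 and 63.2 CPM. Of 21 cell cycle genes 1 was at least 2-fold higher (Ube2c at 57.7 and 116 CPM), where 5.05% of all genes were. The median log2 ratio was 0.18, beside 0.91 in other keratinocytes, and it was below 0 in 5 settings, down to -0.35. Over the settings the log2 ratio of Ube2c ran from 0.48 to 1.19. The mitotic genes Ccnb1, at 15.9 and 23.97 CPM, Ccnb2, at 17.5 and 23.8 CPM, and Cdk1, at 24.8 and 32.3 CPM, had intervals above 0. The replication factor gene Pcna stood at 84.8 and 72.5 CPM, and Hmgb2 at 321 and 246 CPM, with intervals below 0. Members with 2 or more UMIs of Mki67 and Top2a together numbered 58 in the control library (6.24%, 4.77 to 7.996%) and 86 in the experimental library (8.66%, 6.99 to 10.6%). Their intervals overlapped, and these members were deeper, with medians of 11811.5 and 10698.5 UMIs. None of 11 measured growth arrest and p53 family genes passed 2-fold, and Cdkn1a, the p21 cell cycle inhibitor gene, stood at 615 and 524 CPM.

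**Figure D5:**
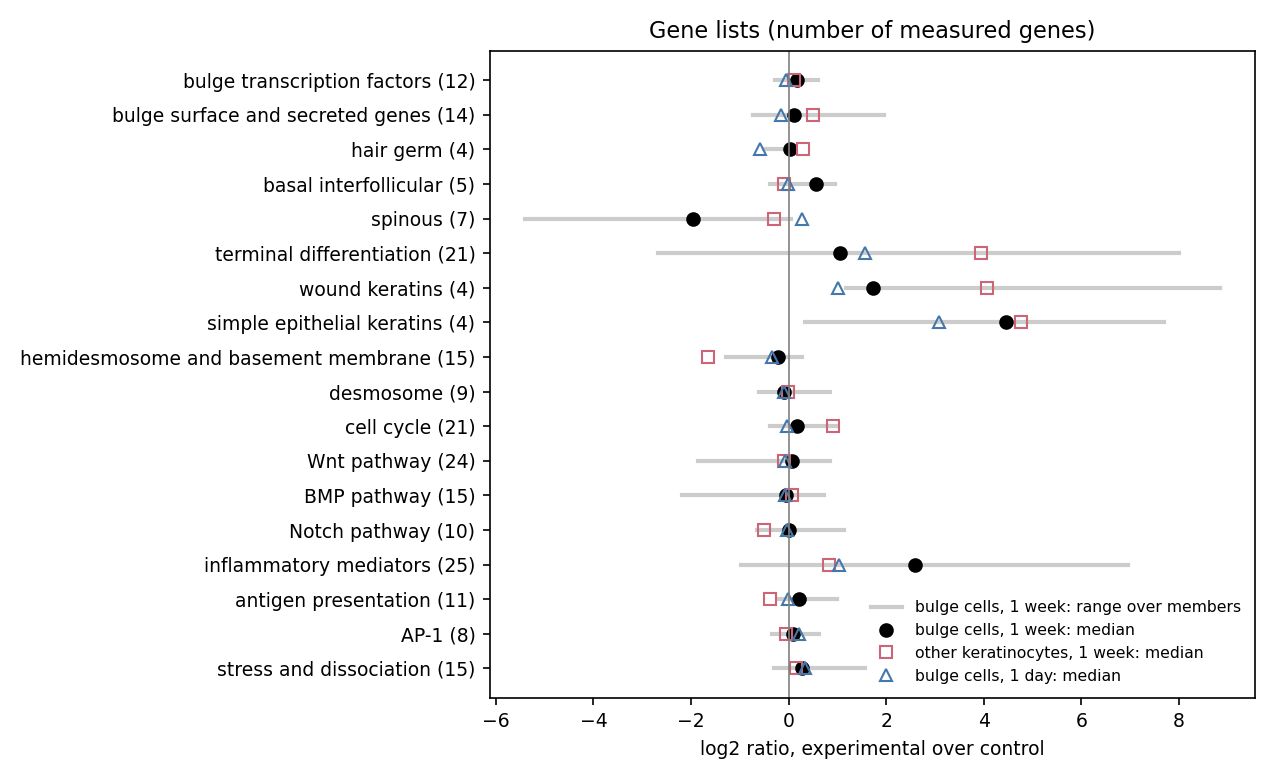
Median log2 ratio of experimental over control for 18 gene lists (horizontal axis) in 1-week bulge cells (filled circles, with the range over the measured genes in grey), other keratinocytes of the same libraries (squares) and 1-day bulge cells (triangles). Inflammatory mediators have a median of 2.60 in bulge cells and 0.84 in other keratinocytes, and hemidesmosome genes -0.21 and -1.65.

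Over all genes, the 12 with the highest lower bound of the log2 ratio held keratins (Krt6b, Krt8, Krt18), cornification genes (Sprr2d, Rptn, Sprr1b) and several secreted proteins. Nppb, the brain natriuretic peptide gene, stood at 0.52 CPM (3 UMIs) and 92.8 CPM, a log2 ratio of 7.47 (5.91 to 9.75). Klk6, a kallikrein protease gene, stood at 1.40 and 144 CPM. Both lay above the immune reference, at 1.33 and 24.01 CPM in the experimental library. Cfd, the complement factor D gene, stood at 0.17 CPM (1 UMI) and 33.96 CPM in bulge cells, beside 17.0 CPM in other experimental keratinocytes. Slurp1, at 1.05 and 73.6 CPM, stood at 135 CPM in the experimental immune reference. Slpi and Sprr2d were likewise below their level there. For Prl2c3 a single experimental member held 92.8% of 152 UMIs. Apart from that gene, at most 36.6% of the UMIs of any of the 12 came from 1 experimental member.

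Of the 12 genes with the lowest upper bound, 9 encode haemoglobin or skeletal muscle proteins whose control UMIs lay mostly in 1 member each. One control member held 98.7% of the 227 Acta1 UMIs, and 58.2% of the 1548 Hbb-bs UMIs came from 1 member. For Hba-a1, Hba-a2 and Hbb-bt this share was 61.8, 61.6 and 70.6%, and for Myl1, Tnnt3, Tnnc2 and Tnni2 it was 100, 93.9, 98.7 and 98.5%. These values describe few barcodes rather than the bulge cells of a library. The other 3 were Mt4, Igfbp3 and Ifi202b. Igfbp3, which encodes an insulin-like growth factor binding protein, stood at 422 CPM in control and 34.4 CPM in experimental members, a log2 ratio of -3.62 (-3.82 to -3.42). Its thinned share in control members was 28.8% against 1.30% in the immune reference, and in other keratinocytes its log2 ratio was -6.08. Ifi202b, an interferon-inducible gene, stood at 176 and 19.4 CPM, a log2 ratio of -3.19 (-3.47 to -2.92), beside -3.61 in other keratinocytes.

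A few genes that were scarce outside the bulge were lower within it. They were named after their values were seen. Cck, the cholecystokinin gene, stood at 109 CPM (101 to 118) in control and 19.2 CPM (15.99 to 22.9) in experimental members, a log2 ratio of -2.51 (-2.80 to -2.23). At 2000 UMIs it was found in 15.2% of control and 3.52% of experimental members, and in no immune reference cell. In other keratinocytes Cck stood at 1.72 and 3.73 CPM. Grik1, a kainate receptor gene, stood at 33.6 and 7.68 CPM in members, with thinned shares of 9.04% and 2.01%. In 1-day bulge cells Cck stood at 49.2 and 41.0 CPM and Grik1 at 5.60 and 4.48 CPM, so neither differed by 2-fold there. Dbp, a circadian clock output gene, stood at 49.6 and 11.2 CPM at 1 week. The hour of tissue collection is not in the labels, and its part was not tested.

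Markers of other cell types were low in members, in part by the rule, which sets Ptprc, Pecam1, Col1a1 and Col3a1 to 0. Summed over 8 immune markers, members held 106 CPM in control and 194 CPM in experimental cells, where the immune reference held 44693 and 35094 CPM. The 5 endothelial markers summed to 4.72 and 5.69 CPM, the 6 fibroblast markers to 52.4 and 48.1 CPM, and the 5 mural and muscle markers to 10.1 and 14.9 CPM. The 5 melanocyte markers summed to 110 and 127 CPM. Pmel (8.91 and 19.8 CPM), Tyrp1 and Mlana were at least 2-fold higher, beside 5.05% of all genes. Mitf, the most abundant of the 5, was lower at 81.8 and 67.2 CPM, a log2 ratio of -0.28 (-0.48 to -0.09). With the highest doublet scores removed, the median log2 ratio of the list was -0.13 in place of 1.15. The 6 sebaceous markers summed to 195 and 332 CPM, of which Mgst1 gave 103 and 235 CPM. Of 5 Merkel cell markers, which share Krt8 and Krt18 with simple epithelia, Krt20, Atoh1 and Isl1 were at 0 in both libraries, and the sum was 0.17 and 0.15 CPM.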

How the data were processed

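The deposited UMI counts, whole numbers for each gene and barcode, were made by the authors with Cell Ranger 5.0.1 per the file headers, and the submitters' processing notes also name mm10 and Seurat. All 4 libraries list 32285 genes. Of these gene identifiers 32158 (99.6%) matched GENCODE M21 on GRCm38, the source of coordinates and of the Trp63 sequences. Members, gene lists and comparisons were chosen with earlier results of these data known.

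UMIs of the members were summed per library and divided by their total gene UMIs (CPM). Intervals are exact 95% Poisson, Clopper-Pearson binomial or conditional binomial intervals. Over all genes, ratios were called past 2-fold with 50 or more UMIs over both libraries. Genes on a list were counted as measured, and called past 2-fold, with 20 or more. The text names the targeted gene, the 4 rule genes, genes of the lists, and the 12 genes at each end of the ranking by interval bound. That ranking left out mitochondrial, ribosomal protein, sex-linked, rule and predicted genes. List genes were drawn mainly from up to 4 per direction with the interval bound farthest from 0. Not all of those are named: Irf1 and Sfn, for example, are left out. Genes outside these groups were named after their values were seen. They include members of lists given for their function, such as Lhx2, Nfatc1, Itga6 and Cd200, and genes given to check the label.

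Thinning drew 2000 UMIs per cell without replacement. Every member has at least 2000 UMIs, so none was left out. Other keratinocytes needed 5 or more summed UMIs of Krt5 and Krt14, and none of Ptprc, Pecam1, Col1a1 or Col3a1. The immune reference needed 3 or more UMIs of Ptprc, Cd3e, Cd3g, Cd52 and Tyrobp, with 2 of them detected. Its keratin limit of 0.2% was set after the data were seen, since before it the control barcodes with immune markers held 284 CPM of Trp63. Doublets stayed in the main values. Scrublet's automatic threshold in scanpy 1.11.5 marked 0.0282% and 0.0055% of the 1-week barcodes, which is too few to have worked. The highest scores, up to 0.8% per 1000 barcodes, were removed as an alternative. Ratios and intervals were tested on simulated counts with Poisson error. Those counts hold no spread between cells, so the test cannot show how the intervals fare under it. Thinning was tested on control members. The membership rule, the reference sets and the doublet step were not tested in this way. Analyses used Python 3.11.15, numpy 2.4.6, scipy 1.17.1 and pandas 2.3.3. The Schwann cell marker list is not reported here.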

Additional observations from a re-analysis of the deposited data

Results flagged for a closer look

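Among the genes named or listed, 5 had ratios past 2-fold in opposite directions in bulge cells at 1 week and at 1 day. The difference between the days was not tested, and the days differ in kit. Cxcl10, an interferon-induced chemokine gene, had a log2 ratio of 2.92 (2.35 to 3.56) at 1 week and -1.16 (-1.57 to -0.77) at 1 day. One experimental member held 83.3% of its 233 UMIs at 1 week, and without that member the 1-week log2 ratio was 0.35. The other 4 were haemoglobin genes, at -4.66 (Hba-a1), -5.95 (Hba-a2), -5.11 (Hbb-bs) and -7.12 (Hbb-bt) at 1 week. At 1 day they were higher in the experimental library, with Hbb-bs at 0.53 and 30.4 CPM. Between 58.2% (Hbb-bs) and 70.6% (Hbb-bt) of their control UMIs at 1 week came from 1 member.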

How the results depend on the processing

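The Trp63 ratio, the 2-fold counts, most list medians and the ratios of many named genes in 1-week members were recomputed. Up to 16 settings of membership, scaling, depth or left-out cells were used, 3 of them added after the data were seen. Counts were also recomputed under other filters, and Trp63 shares at other depths. Values of other cell sets, of the 1-day libraries and of splits of members were not recomputed. Of 61 recomputed genes past 2-fold, 56 kept their sign and 46 stayed past 2-fold in all settings that gave a value. Scaling by TMM moved ratios by 0.04 and totals without mitochondrial and ribosomal genes by -0.07 (log2). No paired analysis was possible because each group is 1 library. For the same reason leaving out a replicate was not possible.

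The Trp63 log2 ratio was -0.76 as the mean CPM per cell and -0.81 thinned. Shares with Trp63 were 80.4% and 57.0% unthinned, and 80.0% and 51.6% at 4000 UMIs, control first. Genes higher and lower by 2-fold numbered 608 and 398 with 20 or more UMIs and 1185 and 1172 with no filter, and 101 were lower after thinning. Medians of lists moved as follows. With the mean CPM per cell, bulge transcription factors were at 0.061, spinous genes at -1.10 and terminal differentiation at 2.08. After thinning, spinous genes were at -1.10, terminal differentiation at 2.44 and simple keratins at 3.15. With 4000 UMIs or more, bulge transcription factors were at 0.28, spinous genes at -2.44, terminal differentiation at 0.37 and wound keratins at 1.61. With 5 or more rule UMIs, terminal differentiation was at 2.83 and wound keratins at 1.47. With 3 rule genes detected, the cell cycle was at -0.33. Without Cd34 in the rule, the cell cycle was at -0.26, spinous genes at -1.75 and terminal differentiation at 2.85. Without Lgr5, terminal differentiation was at 2.49. Without Postn, the cell cycle was at -0.35, inflammatory mediators at 1.71, spinous genes at -2.12, terminal differentiation at 2.78 and wound keratins at 1.44. With the highest Scrublet scores removed, the cell cycle was at -0.22, spinous genes at -1.78, wound keratins at 1.87 and melanocyte markers at -0.13. With an Lhx2 UMI required, terminal differentiation was at 2.93, wound keratins at 1.60 and Cxcl10 at -0.38. Without the member richest in each gene, left out in both libraries, terminal differentiation was at 2.62.

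Without members with Krt1 and Krt10 at 0.5% or more, spinous genes reversed to 0.61, with Krt1 at 1.00, Krt10 at 0.61, Krt77 at 0.85 and Krtdap at 0.90. That setting removes cells by Krt1 and Krt10 themselves. Bulge transcription factors were then at -0.0091, bulge surface genes at -0.12 and terminal differentiation at 2.50. The cause of the other shifts was not tested.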
